A study of Mus musculus with 6 samples.

Results

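Aminoacyl-tRNA synthetases are the enzymes that load each tRNA with its amino acid. Their transcripts were followed here in RAW264.7 mouse macrophages in which a Raf-1 oncoprotein had been switched on. The genes were found by symbol in a deposited table of 50599 genes, which gave 35 of 36 synthetases, and Mars2, whose symbol cell had turned into a spreadsheet date, was found by its Ensembl identifier. Of these 36, 20 encode cytosolic enzymes, and 16, whose symbols end in 2, encode mitochondrial enzymes. All 36 had enough reads to be tested, with no fewer than 119 reads over the 3 samples of either group.

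All cells carried ∆Raf-1:ER, a truncated Raf-1 kinase fused to the oestrogen receptor and delivered by retrovirus, and had been selected with hygromycin B. The fusion protein is activated by 4-hydroxytamoxifen (4-OHT). RNA was collected on day 3 from 3 samples given 100 nM 4-OHT, described as senescent, and from 3 samples given the ethanol vehicle, named as replicates A, B and C of their group, after 24 hours without serum. Both groups carry the construct and no cells without it were given 4-OHT, so an effect of the drug cannot be told apart from one of the kinase, and the labels do not say whether the line was a single clone. They also do not say that the samples were separate cultures, so p-values measure the spread between these samples, which may be technical.

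Most synthetases recognise a single amino acid, and charged tRNA is the substrate of the ribosome. Cytosol and mitochondria translate with separate tRNAs, and for most amino acids separate nuclear genes encode the enzyme of each compartment. Gars and Kars are exceptions, as each provides the enzyme for both. Several cytosolic enzymes are bound in a multisynthetase complex around the scaffold proteins encoded by Aimp1, Aimp2 and Eef1e1. When uncharged tRNA builds up, the kinase GCN2 (Eif2ak4) phosphorylates eIF2α and translation of the transcription factor ATF4 rises. ATF4 in turn activates many cytosolic synthetase genes, amino acid transporters and enzymes of amino acid synthesis.

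Libraries held 11629150 to 15943722 reads. Values are normalised counts, that is reads divided by a size factor of the library, and their totals lay between 13752110 and 14506026 with 4-OHT, against 11332925 and 11691753 with vehicle. Macrophage markers were present, with reads for 10 of 10. Of 9 tested, 5 were higher and 4 lower, with a median log2 change of 0.39 (2 higher and 4 lower on total-count scaling). The sum of the 10 was 89053 to 111289 with 4-OHT, against 118066 to 121209 with vehicle. Markers of fibroblasts, epithelium, lymphocytes and endothelium, 11 in all, summed to 35.1 to 52.4 with 4-OHT, against 2.92 to 8.65 with vehicle. Of these, 9 had a read in some library and 2, among them the B cell marker Ms4a1, were at 0 in every library. Only 1 of the 11 had enough reads to be tested, and it was higher with 4-OHT (limma, unadjusted p under 0.05). Fewer cells and less RNA per cell cannot be told apart in such bulk samples, and the part of other cells in the results below was not tested.

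Most synthetase transcripts were lower with 4-OHT. By limma on log2(value + 1) with Benjamini-Hochberg adjustment over 11828 genes at a threshold of 0.05, 3 of 36 rose, 25 fell and 8 did not pass, with a median log2 change of -0.35. The background was broad, as 65.5% of all genes tested passed, 33.0% higher and 32.5% lower, with a median change of -0.02. The 3 that rose, Aars, Sars and Cars, are cytosolic. Of the 20 cytosolic transcripts 11 fell and 6 did not pass, with a median of -0.19. Of the 16 mitochondrial transcripts 14 fell, 0 rose and 2 did not pass, with a median of -0.57. The count of 0 was the same at an unadjusted p under 0.05, with edgeR's quasi-likelihood test and with DESeq2.

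The counts depend on scaling, while the median of mitochondrial transcripts was below that of cytosolic ones under both scalings compared. When libraries were instead scaled to equal totals, the median of all genes moved to -0.32 and 74.5% of all genes passed, 55.4% lower and 19.1% higher. Then 32 synthetases were lower, 1 was higher and 3 did not pass. Relative to the median of all genes, 29 of 36 synthetases were below it under both scalings, 14 of 20 cytosolic and 15 of 16 mitochondrial. On total-count scaling the medians were -0.50 for cytosolic and -0.88 for mitochondrial transcripts. The difference between these medians was not tested as such, and the ratios within pairs of enzymes, given further on, do not depend on scaling.

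**Figure D1:**
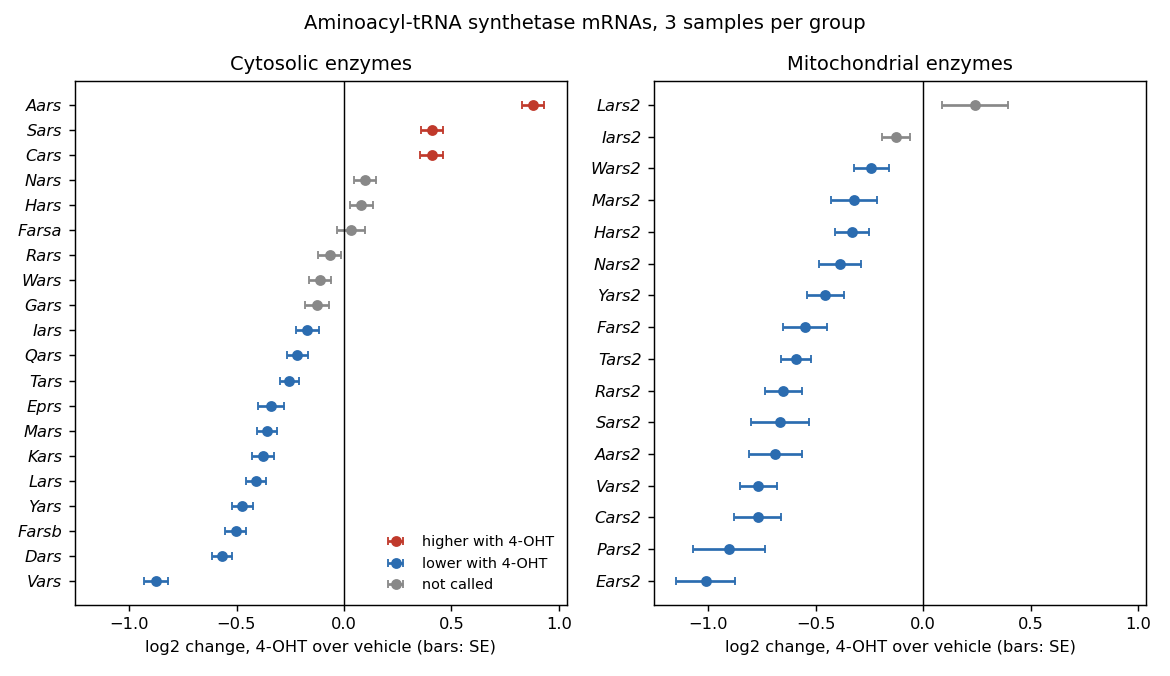
Log2 change of each synthetase transcript, 4-OHT over vehicle (x axis, on the log2(value + 1) scale), for 20 cytosolic (left) and 16 mitochondrial (right) enzymes. Points are limma estimates from 3 samples per group and bars are standard errors; Aars stands highest at 0.88 and Ears2 lowest at -1.01.

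Sample by sample, 4-OHT values lay wholly above the vehicle values for 5 of 36 synthetases, all cytosolic, and wholly below for 26, of which 12 are cytosolic and 14 mitochondrial. Over all genes tested, the groups did not overlap for 70.7%, with 35.0% wholly above and 35.7% wholly below. The replicates of cytosolic transcripts were tight, with a vehicle SD of 1.65% to 8.87% of the mean. Mitochondrial transcripts had fewer reads and a wider spread, with a median standard error of the log2 change of 0.101, against 0.0515 for cytosolic ones.

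**Figure D2:**
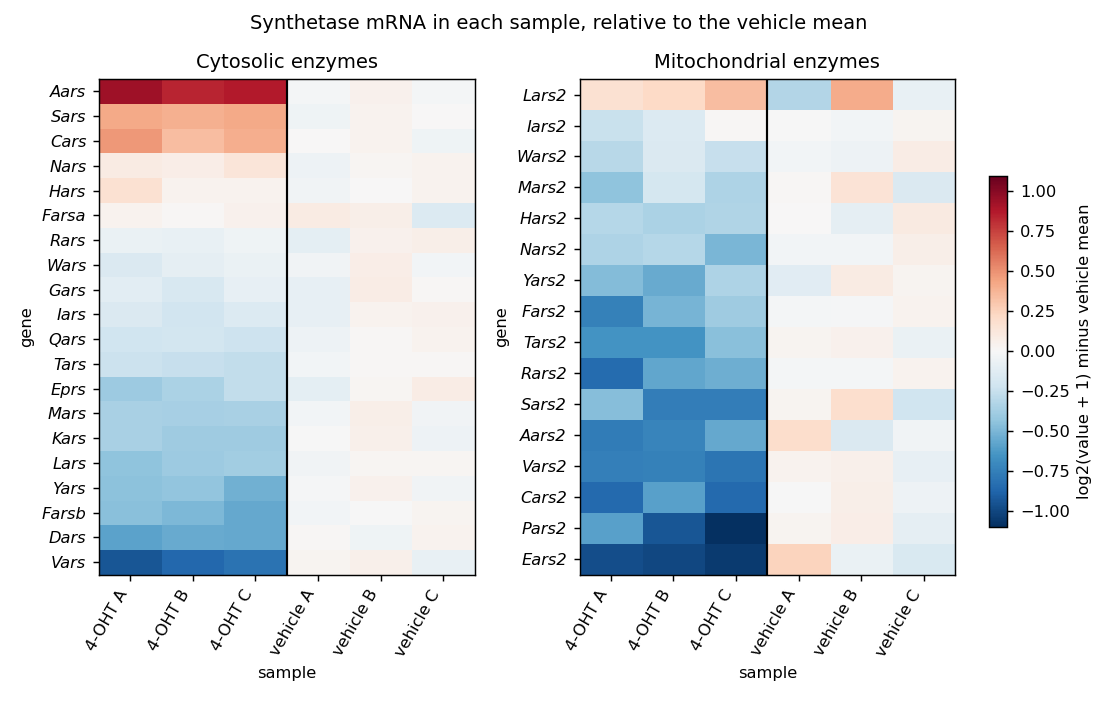
Each synthetase (rows, ordered by its change) in each of the 6 samples (columns), as log2(value + 1) minus the mean of the 3 vehicle samples. The 4-OHT columns are blue in 14 of 16 mitochondrial rows where all 3 samples lie below vehicle, and Lars2 is the row in which vehicle samples differ most among themselves.

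Aars, the cytosolic alanyl-tRNA synthetase (ENSMUSG00000031960.14, GRCm38 chr8:111033144-111057664, plus strand), showed the largest rise. Its normalised counts were 9443, 8845 and 9044 with 4-OHT, against 4872, 5097 and 4876 with vehicle. The groups were far apart compared with the spread within them, at 9111 ± 305 with 4-OHT and 4948 ± 129 with vehicle (SD, n = 3 each; limma log2 change 0.88, SE 0.0514, adjusted p = 5.98e-08). On total-count scaling Aars alone among the synthetases remained higher, by 0.57 (adjusted p = 1.83e-07). In the annotation 14.3% of its exon bases are shared with Exosc6 on the same strand, and how such reads were assigned is not stated.

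Sars, the seryl-tRNA synthetase (ENSMUSG00000068739.13, chr3:108424865-108445209, minus strand), had 8935, 8818 and 8944 normalised counts with 4-OHT, against 6500.1, 6902 and 6721 with vehicle. Cars, the cysteinyl-tRNA synthetase (ENSMUSG00000010755.17, chr7:143557230-143600090, minus strand), had 2803, 2548 and 2648 with 4-OHT, against 2016, 2066 and 1944 with vehicle. Every 4-OHT sample was above every vehicle sample for both. Their limma log2 changes were 0.41 each (adjusted p = 2.70e-05 for Sars and 3.43e-05 for Cars), but neither passed on total-count scaling, where both values were 0.10 (adjusted p = 0.173 and 0.175).

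These 3 genes belong to 11 cytosolic synthetases that are commonly described as ATF4 targets, a list drawn from textbook knowledge (Aars, Cars, Eprs, Gars, Iars, Mars, Nars, Sars, Tars, Wars and Yars). Of the 11, 3 rose, 5 fell and 3 did not pass, with a median change of -0.13, and on total-count scaling 1 rose, 8 fell and 2 did not pass. The other 9 cytosolic enzymes had 0 higher, 6 lower and 3 that did not pass, with a median of -0.38. Calls made up 72.7% of the 11 and 66.7% of the 9, near the background of 65.5% for every tested gene. That background split into 33.0% upward and 32.5% downward calls. With libraries brought to equal totals, it was 19.1% upward and 55.4% downward. The difference between the lists was not tested.

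The promoters were searched for the composite element bound by ATF4 with C/EBP proteins, TGATGNAA on either strand, in RefSeq windows of GRCm38.p6 from 250 bases before to 50 after the start, which were at hand for 27 synthetases. It was present in 5 of 13 cytosolic and 0 of 14 mitochondrial windows, beside 4.51% of 27025 genes with a window and 2.79% of the 8788 of these that were tested. The 5 genes, Aars, Gars, Iars, Tars and Yars, included 1 that rose. No window was at hand for Cars, Nars, Wars, Hars, Rars, Lars, Vars, Hars2 and Pars2. Among the transcripts that rose, only Aars and Sars could therefore be searched. To show what the element looks like in these genes, 1 site for each is given with 10 bases on each side, 5′ to 3′ on the strand of the gene, with the element in capitals.
Aars: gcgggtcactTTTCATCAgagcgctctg
Gars: ggctgcgctaTTTCATCAtgcaccgggc
Iars: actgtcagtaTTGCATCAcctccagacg
Tars: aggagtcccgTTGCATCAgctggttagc
Yars: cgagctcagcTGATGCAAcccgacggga

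The Aars site shown starts at base 10 after the RefSeq start (chr8:111033841-111033868, plus strand) and lies in untranslated exon sequence of Aars in GENCODE M21. The Gars site starts 30 bases before the start (chr6:55037961-55037988, plus strand) and the Tars site 15 bases before it (chr15:11399656-11399683, minus strand). In each case the element itself lies outside any annotated exon. The coordinates of all these sites are those of the stretch shown, flanks included, and a flank of the Tars stretch runs into the annotated Tars gene. The Iars site starts at base 8 after the start (chr13:49682127-49682154, plus strand) in untranslated exon sequence, and the Yars site at base 4 (chr4:129189896-129189923, plus strand) in exon sequence that is untranslated in some transcripts and coding in others. A match describes letters only and does not show binding.

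Other elements were searched in the same windows. The E-box CACGTG, a site for MYC and related factors that reads the same on both strands, was in 4 of 13 cytosolic windows (Aars, Iars, Tars and Farsb) and 1 of 14 mitochondrial windows (Ears2), beside 12.2% of tested genes. The palindromic element of NRF1, a factor of nuclear genes for mitochondria, was in 3 cytosolic and 2 mitochondrial windows, beside 12.4% of tested genes. The interferon-stimulated response element was in 1 cytosolic window, that of Qars, and 0 mitochondrial ones, beside 3.97% of tested genes. Myc transcript was lower, at 146 ± 30.3 with 4-OHT and 218 ± 21.4 with vehicle (log2 change -0.59, adjusted p = 0.00296).

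The remaining 6 of the cytosolic enzymes that were not lower did not pass the test on the deposited scaling. Nars, the asparaginyl enzyme, had 8132, 8033 and 8379 normalised counts with 4-OHT, against 7353, 7754 and 7837 with vehicle, a log2 difference of 0.10 (adjusted p = 0.121). Hars, the histidyl enzyme, had a value of 0.08 and Farsa, the α subunit of the phenylalanyl enzyme, one of 0.03. The direction of these 3 rests on scaling, since on total-count scaling they had values of -0.21, -0.23 and -0.27 and passed. Rars, Wars and Gars, for arginine, tryptophan and glycine, had values of -0.07, -0.11 and -0.13 and passed as lower only on total-count scaling and, for Gars, in 3 other settings. Wars is known in human cells as an interferon-induced gene, and had 1556, 1622 and 1657 normalised counts with 4-OHT, against 1692, 1829 and 1703 with vehicle.

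Nearly all transcripts of the multisynthetase complex were lower. Of its 8 transcripts, 7 fell, 0 rose and 1, Rars, did not pass, with a median change of -0.35 and a range of -0.57 to -0.07. Their summed values were 23438, 23628 and 24169 with 4-OHT, against 27536, 29447 and 29706 with vehicle, a ratio of 0.822. The 12 cytosolic transcripts outside the complex had 3 higher, 4 lower and 5 that did not pass, with a median of -0.04, and summed to 44321, 43034 and 43913 with 4-OHT, against 38548, 40546 and 39377 with vehicle, a ratio of 1.11. On the deposited scaling the sums of both groups did not overlap between treatments, in opposite directions. Values of single genes did not overlap for 70.7% of all genes tested. Aars, with means of 9111 with 4-OHT and 4948 with vehicle, is part of the second sum. As a share of the library both sums were lower with 4-OHT, again without overlap. The complex averaged 0.167% with 4-OHT and 0.251% with vehicle, and the transcripts outside it 0.308% and 0.343%. On the deposited scaling 87.5% of the complex transcripts and 58.3% of those outside it passed. The same held for 65.5% of all genes tested, 33.0% higher and 32.5% lower. On total-count scaling 8 of 8 complex transcripts fell, and outside the complex 1 rose, 9 fell and 2 did not pass. Of all genes tested 55.4% were then lower and 19.1% higher.

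Within the complex, Dars, the aspartyl enzyme, fell most, with 1272, 1305 and 1297 normalised counts with 4-OHT, against 1929.6, 1853 and 1961 with vehicle (log2 change -0.57, adjusted p = 1.09e-06). Lars, the leucyl enzyme, had 3313, 3428 and 3460.3 with 4-OHT, against 4383, 4573 and 4592 with vehicle, a change of -0.41. Both showed less spread within a group than the gap between groups. Kars, the lysyl enzyme, which also serves mitochondria, had 1332, 1301 and 1302 with 4-OHT, against 1699, 1775 and 1638 with vehicle, a change of -0.38. Mars, the methionyl enzyme, had 1843, 1832 and 1844 with 4-OHT, against 2315, 2464 and 2303 with vehicle, a change of -0.36. Eprs, a single protein that charges both glutamate and proline tRNAs, had 5191, 5386 and 5663 with 4-OHT, against 6350.0, 6959 and 7247 with vehicle, a change of -0.34. Like the 4 before it, its groups did not overlap. Qars, the glutaminyl enzyme, had 2129, 2166 and 2121 with 4-OHT, against 2396, 2502 and 2559.7 with vehicle, a change of -0.22 (adjusted p = 0.00171). Iars, the isoleucyl enzyme, had 3974, 3843 and 4007 with 4-OHT, against 4172, 4560.2 and 4582 with vehicle, a change of -0.17 (adjusted p = 0.0141). Iars was the weakest call among cytosolic enzymes and no longer passed without 4-OHT replicate B (-0.15), vehicle replicate B (-0.15) or vehicle replicate C (-0.15). Mars shares 68 exon bases with Ddit3 on the opposite strand, and whether strand was used in counting is not stated.

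The transcripts of the 3 scaffold proteins fell as well. Aimp2 had 351, 342 and 282 normalised counts with 4-OHT, against 464, 519 and 502 with vehicle, a change of -0.61 (adjusted p = 1.04e-04). Eef1e1 and Aimp1 changed by -0.48 and -0.47. All 3 changes were below the median of the enzymes they bind.

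Outside the complex the largest fall was that of Vars, the valyl-tRNA synthetase (ENSMUSG00000007029.16, chr17:35000987-35016322, plus strand), a partner of the elongation factor eEF1. It had 1382, 1461 and 1511 normalised counts with 4-OHT, against 2711, 2761 and 2509 with vehicle. The means were 1451 ± 65.1 with 4-OHT and 2660.3 ± 134 with vehicle (SD, n = 3 each; limma log2 change -0.87, adjusted p = 1.17e-07), and the groups did not overlap. Yars, the tyrosyl enzyme, had 1343, 1357 and 1269 with 4-OHT, against 1817, 1901 and 1790 with vehicle, a change of -0.47. Tars, the threonyl enzyme, had 2303, 2282 and 2245 with 4-OHT, against 2665, 2738 and 2747 with vehicle, a change of -0.25. The vehicle samples of Tars were the tightest of any synthetase and lay above every 4-OHT sample. Farsa and Farsb encode the subunits of a single enzyme for phenylalanine. Farsb fell by 0.50 on the log2 scale and had 1841, 1799 and 1707 with 4-OHT, against 2482, 2519 and 2584 with vehicle. Farsa had 937, 924 and 943 with 4-OHT, against 973, 953 and 823 with vehicle. The difference between the subunits was not tested. Of the exon bases of Farsb 9.47% are shared with Sgpp2 on the opposite strand.

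Synthetases fall into 2 structural classes with unrelated catalytic domains, and both classes were represented among the transcripts that rose and those that fell. Of 10 cytosolic class I enzymes 1 rose, 7 fell and 2 did not pass (median change -0.28), and of 10 cytosolic class II enzymes 2 rose, 4 fell and 4 did not pass (median -0.05). In mitochondria 7 of 9 class I and 7 of 7 class II transcripts fell, with medians of -0.45 and -0.59. Among all genes tested 33.0% were higher and 32.5% lower. The difference between classes was not tested.

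The mitochondrial transcripts fell almost throughout. Without Lars2, which is described separately, the 15 others summed to 3508, 3681 and 3876 normalised counts with 4-OHT, against 5001, 5007 and 4954 with vehicle, a ratio of 0.740. The 20 cytosolic transcripts summed to 67759, 66662 and 68082 with 4-OHT, against 66085, 69993 and 69083 with vehicle, a ratio of 0.987. On the deposited scaling the mitochondrial sums lay well apart between treatments and the cytosolic sums overlapped. As a share of each library, cytosolic transcripts averaged 0.475% with 4-OHT and 0.594% with vehicle, and mitochondrial ones without Lars2 0.0259% with 4-OHT and 0.0434% with vehicle. By this share every 4-OHT sample lay below every vehicle sample for both, so the cytosolic overlap depends on scaling. Leaving Lars2 or Mars2 out of the group, a choice made after the data were seen, gave 14 of 15 and 13 of 15 transcripts lower.

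Ears2, the mitochondrial glutamyl-tRNA synthetase (ENSMUSG00000030871.11, chr7:122037213-122067263, minus strand), fell most. It had 63.4, 62.3 and 60.1 normalised counts with 4-OHT, against 149, 119.7 and 112 with vehicle (limma log2 change -1.01, SE 0.136, adjusted p = 5.17e-05). Pars2, the prolyl enzyme (ENSMUSG00000043572.7, chr4:106651069-106655282, plus strand), had 54.4, 42.6 and 36.3 with 4-OHT, against 84.8, 87.0 and 77.1 with vehicle (-0.90, SE 0.169, adjusted p = 6.09e-04). Both had few reads, Pars2 with 119 and 282 reads and Ears2 with 166 and 429 reads in the 4-OHT and vehicle groups, and their standard errors are among the widest. In the cytosol the bifunctional Eprs serves both amino acids.

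Cars2, the mitochondrial cysteinyl enzyme (ENSMUSG00000056228.10, chr8:11513977-11550783, minus strand), had 99.7, 119 and 99.7 normalised counts with 4-OHT, against 180.3, 189 and 174 with vehicle (-0.77, adjusted p = 7.19e-05). Vars2, the valyl enzyme (ENSMUSG00000038838.15, chr17:35655634-35667592, minus strand), had 151, 152 and 145 with 4-OHT, against 262, 264 and 239 with vehicle (-0.77, adjusted p = 1.26e-05). Aars2, the alanyl enzyme, had 94.0, 97.2 and 109 with 4-OHT, against 185, 144 and 157 with vehicle (-0.69, adjusted p = 4.10e-04). In all 3 the highest 4-OHT sample stayed below the lowest vehicle sample, and the same held for Sars2, the seryl enzyme, with 117, 95.0 and 95.2 with 4-OHT, against 166, 185 and 139 with vehicle (-0.67, adjusted p = 9.90e-04). Of Vars2 8.52% and of Cars2 5.83% of exon bases are shared with genes on the opposite strand.

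Rars2, for arginine, had 268, 323 and 332 normalised counts with 4-OHT, against 476, 475 and 497 with vehicle, a change of -0.65. Tars2, for threonine, had 463, 463 and 530.4 with 4-OHT, against 746, 757 and 693 with vehicle, a change of -0.59. Both fell by about as much as the median mitochondrial transcript, as did Fars2 for phenylalanine at -0.55 and Yars2 for tyrosine at -0.45. Nars2 and Hars2, for asparagine and histidine, changed by -0.39 and -0.33. In these 6 the groups did not overlap. Fars2 shares 8.72% of its exon bases with Nrn1 on the opposite strand, and Hars2 shares 195 exon bases with Hars, also on opposite strands.

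Mars2 and Wars2, the methionyl and tryptophanyl enzymes, were the weakest calls, at -0.32 and -0.24 (adjusted p = 0.0196 and 0.0205). Mars2 had 153, 182 and 164 normalised counts with 4-OHT, against 209.5, 230.4 and 187 with vehicle, and Wars2 had 223, 247 and 231 with 4-OHT, against 271, 266 and 293 with vehicle. The highest 4-OHT sample of each lay just below its lowest vehicle sample. Neither passed with DESeq2 or in the authors' deposited table, where their adjusted p-values were 0.0760 for Mars2 and 0.109 for Wars2. Both were lost without 4-OHT replicate A (-0.26 for Mars2 and -0.21 for Wars2), Mars2 also without vehicle replicate A (-0.32) or B (-0.25), and Wars2 without vehicle replicate C (-0.20). Iars2, the isoleucyl enzyme, had 1005, 1072 and 1204 with 4-OHT, against 1187, 1167 and 1216 with vehicle, and did not pass (-0.13, adjusted p = 0.112) except without 4-OHT replicate C (-0.20) or on total-count scaling (-0.43). Of its exon bases 22.9% are shared with Rab3gap2 on the opposite strand. Otherwise the authors' deposited table made the same calls, with 3 cytosolic transcripts higher, 11 cytosolic lower and 12 mitochondrial lower.

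Lars2, the mitochondrial leucyl enzyme, stood apart from all other synthetases in level and in spread. It had 44122, 45840.3 and 49869 normalised counts with 4-OHT, against 31400.2, 52101 and 37265 with vehicle, so the groups overlapped and the vehicle SD was 26.5% of the mean. The log2 difference of 0.24 did not pass (adjusted p = 0.185), but it passed without vehicle replicate B (0.44, adjusted p = 0.00759), and on total-count scaling the value was -0.06. Across the 6 libraries Lars2 followed Gm42418, a noncoding gene model known to collect ribosomal RNA reads, which had 557917, 615851 and 668941 with 4-OHT, against 405174, 671502 and 483046 with vehicle. Lars2 was between 7.44% and 7.91% of Gm42418 in every library, and 34.0% to 47.3% of the mitochondrial ribosomal RNA mt-Rnr2. These rows were chosen after their values were seen, and the part of ribosomal RNA reads in the Lars2 row was not tested.

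**Figure D3:**
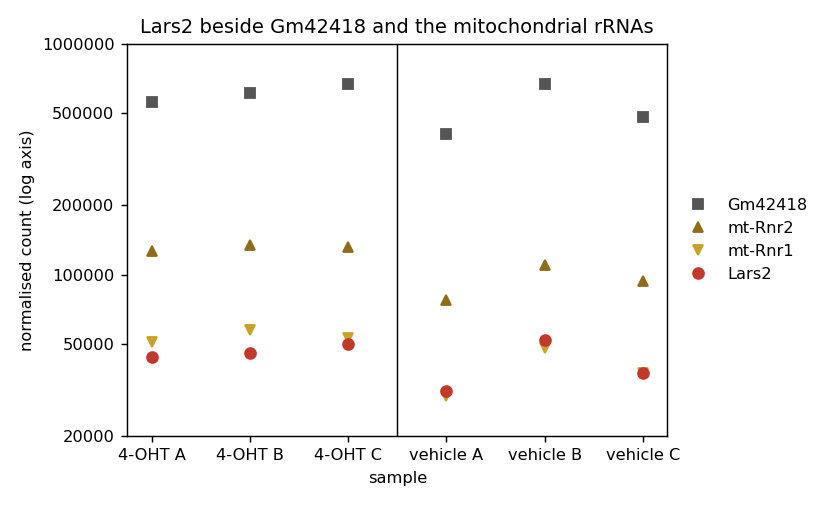
Normalised counts (y axis, log scale) of Lars2, Gm42418 and the mitochondrial ribosomal RNAs mt-Rnr1 and mt-Rnr2 in each of the 6 samples. Vehicle replicate B is the highest and vehicle replicate A the lowest vehicle sample for all 4 rows, and Lars2 keeps a nearly constant distance below Gm42418.

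For 14 amino acids the cytosolic enzyme, represented by Farsa for phenylalanine, was paired with its mitochondrial counterpart, and the ratio of the pair within a sample does not depend on the scaling of libraries. The ratio was higher with 4-OHT, with no overlap between the groups, for 8 of 14 pairs, lower with no overlap for 1, and overlapping for 5, and the median log2 difference was 0.37. Among all genes tested, the values of single genes did not overlap for 70.7%. Ratios of other pairs of genes were not computed, so whether these counts are particular to synthetase pairs was not tested. With Farsb in place of Farsa, a choice made after the data were seen, the phenylalanyl ratio overlapped and differed by 0.04 ± 0.135 (SE), where Farsa gave 0.58. With 3 samples against 3, the smallest p an exact permutation test (two-sided) allows is 0.1, which the 9 pairs without overlap reached (0.156 after adjustment over the 14 pairs), so no pair could pass 0.05.

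The alanyl pair differed most. The log2 ratio of Aars to Aars2 was 6.64, 6.49 and 6.36 with 4-OHT, against 4.71, 5.13 and 4.95 with vehicle, a difference of 1.57 ± 0.145 (SE). Per kilobase of transcript, Aars was 53.1 times Aars2 with 4-OHT and 17.9 times with vehicle. The cysteinyl pair was next, with log2 ratios of 4.80, 4.41 and 4.72 with 4-OHT, against 3.48, 3.44 and 3.47 with vehicle, a difference of 1.18 ± 0.120. The seryl pair had 6.25, 6.52 and 6.54 with 4-OHT, against 5.29, 5.21 and 5.58 with vehicle, a difference of 1.07 ± 0.148. In these pairs the cytosolic transcript rose and the mitochondrial one fell. The arginyl, phenylalanyl (Farsa to Fars2), asparaginyl, histidyl and threonyl ratios differed by 0.58, 0.58, 0.48, 0.41 and 0.34, and their cytosolic members had log2 values between -0.25 and 0.10, while all 5 mitochondrial members fell.

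The valyl, isoleucyl, methionyl and tyrosyl ratios differed by -0.11, -0.04, -0.04 and -0.02, and the tryptophanyl ratio by 0.13, all with overlap. The bifunctional Eprs was set against Ears2 and Pars2 only after the data were seen, and these ratios differed by 0.67 ± 0.190 and 0.57 ± 0.224 (SE) with no overlap and without a test. In the valyl pair both transcripts fell, Vars by 0.87 and Vars2 by 0.77 on the log2 scale. The leucyl ratio differed by -0.65, which carries the spread of Lars2 described above. Leaving out any sample kept the difference of the alanyl ratio between 1.46 and 1.67.

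**Figure D4:**
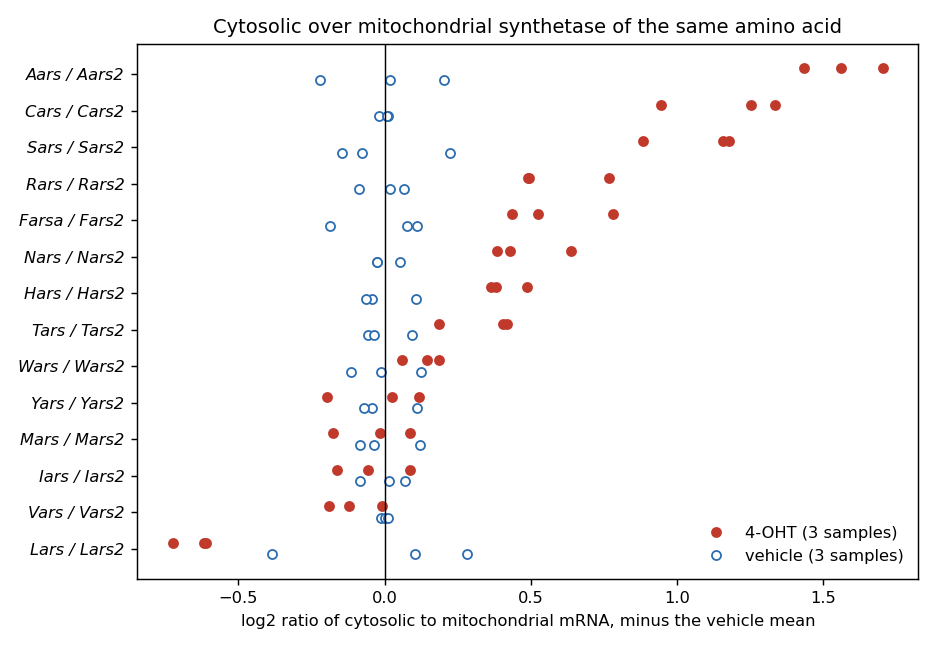
Log2 ratio of the cytosolic to the mitochondrial transcript for 14 amino acids (rows), minus the mean of the 3 vehicle samples; filled points are 4-OHT samples and open points vehicle samples. The 4-OHT points lie right of all vehicle points in 8 rows and left of them in the leucyl row.

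The levels of the 2 compartments hardly met. Per kilobase of the principal transcript, cytosolic transcripts ranged from 351 (Vars) to 2980.4 (Nars) normalised counts with 4-OHT and from 502 (Farsa) to 2786 (Nars) with vehicle. Mitochondrial transcripts other than Lars2 ranged from 14.7 (Mars2) to 202 (Tars2) with 4-OHT and from 18.5 (Mars2) to 305 (Tars2) with vehicle, so every cytosolic transcript stood above every one of these 15. The median cytosolic level was 15.7 times the median of these 15 with 4-OHT and 10.1 times with vehicle. Lars2 was first of all 36, at 11969.8 ± 758 with 4-OHT and 10338 ± 2740.0 with vehicle. The low place of Mars2 depends on length, as its principal transcript, at 11294 bases, is the longest of the 36. Before division by length its mean was 167 with 4-OHT and 209 with vehicle, above that of Pars2 at 44.4 and 83.0.

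In the vehicle samples Nars, Rars, Sars, Gars and Eprs followed Lars2, and for 18 of 35 neighbours in the order the difference was within the sum of their SDs, so much of the middle of the order is not resolved. The largest moves in the order were rises of Aars and Cars. Aars had rank 6 at 1584 ± 53.0 per kilobase with 4-OHT and rank 13 at 861 ± 22.4 with vehicle. Cars had rank 13 at 828 ± 39.9 with 4-OHT and rank 20 at 623 ± 19.0 with vehicle. From vehicle to 4-OHT, Dars moved down from rank 12 to 17 and Lars from 8 to 12, while Hars moved up from 15 to 11. In the vehicle order Aars was within this spread of both its neighbours, Dars and Kars.

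The genes that act next to the synthetases were listed from textbook knowledge, with earlier results of these data known. Where a list had 0 higher genes by limma, the count was also 0 at an unadjusted p under 0.05 and with edgeR or DESeq2. The counts of each list stand beside 33.0% of all genes tested that were higher and 32.5% that were lower, 65.5% in either direction. Most transcripts of translation factors were lower as well. Of the 5 cytosolic elongation factor genes 5 fell, with a median change of -0.47, among them Eef1b2 (-0.51), Eef1g (-0.51) and Eef1d (-0.47), subunits of the exchange factor to which valyl-tRNA synthetase binds, and Eef2 (-0.43). Of 10 mitochondrial translation factors 6 fell and 4 did not pass, with a median of -0.31. The strongest were Mtrf1 (-0.89), a release factor, Guf1 (-0.75), an elongation factor, and Tsfm (-0.52) and Gfm1 (-0.42), elongation factors Ts and G1.

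Mitochondria make glutaminyl-tRNA indirectly, by amidating a glutamyl-tRNA that Ears2 charges. The genes of the 3 subunits of this amidotransferase fell, with log2 changes of -0.60 for Gatc, -0.58 for Gatb and -0.23 for Qrsl1. Qrsl1 was a weak call (adjusted p = 0.0228) that was lost with DESeq2 (-0.21), with edgeR without vehicle replicate B (-0.21), and by limma without 4-OHT replicate A (-0.20) or B (-0.22) or vehicle replicate A (-0.22) or B (-0.21). Mtfmt, which formylates the initiator tRNA, had a value of -0.13 and did not pass (adjusted p = 0.218).

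Of 6 tested enzymes that clear mischarged or stalled tRNA, 5 fell and 1 rose, with a median of -0.71, and the counts were the same on total-count scaling. Dtd1, which removes D-amino acids from tRNA, had 69.1, 72.1 and 72.5 normalised counts with 4-OHT, against 159.8, 164 and 165 with vehicle (-1.18, adjusted p = 1.80e-06), and the groups did not overlap. Ptrh2, a peptidyl-tRNA hydrolase, changed by -0.74, and Prorsd1 by -0.67.

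Upstream, of 22 tested genes of tRNA maturation and export 14 fell, 0 rose and 8 did not pass, with a median of -0.43. Hsd17b10, a subunit of mitochondrial RNase P, had 373, 364 and 346 normalised counts with 4-OHT, against 725, 707 and 722 with vehicle (-0.99, adjusted p = 7.29e-08). Rpp40 (-0.97) and Rpp14 (-0.67) belong to the nuclear RNase P, and Xpot (-0.42) exports tRNA from the nucleus. For RNA polymerase III, which transcribes tRNA genes, 7 of 14 fell, 2 rose and 5 did not pass, with a median of -0.11. Polr3e (-0.61) and Polr3k (-0.49) fell. Bdp1 (0.30) and Polr3a (0.34), the second named after its value was seen, were the 2 that rose, and on total-count scaling none rose and 11 fell. Since tRNAs themselves are not measured by this assay, none of these values speaks of tRNA amounts.

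**Figure D5:**
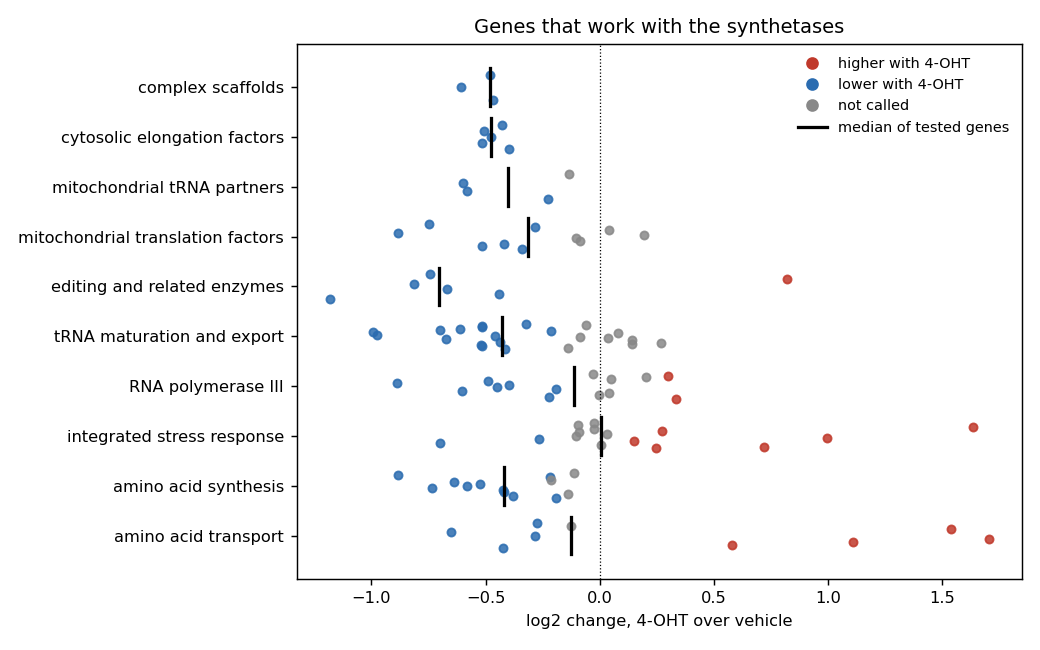
Log2 change, 4-OHT over vehicle, of each tested gene (points) in 10 lists of genes that work with the synthetases; black bars mark the median of each list. All 3 scaffold and 5 elongation factor genes lie left of 0, while the integrated stress response list spreads from -0.70 to 1.63 and the amino acid transport list from -0.65 to 1.71.

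The integrated stress response, the pathway that links uncharged tRNA to ATF4, did not move as a block. Of 15 tested genes 6 rose, 2 fell and 7 did not pass, with a median of 0.01, and on total-count scaling 3 rose, 9 fell and 3 did not pass. The 53.3% of the list that passed on the deposited values lay below the 65.5% over all genes tested. Ppp1r15a, which directs dephosphorylation of eIF2α, had 2328, 2323 and 2576 normalised counts with 4-OHT, against 788, 849.5 and 694 with vehicle (1.63, adjusted p = 8.01e-09). Ddit3, which encodes CHOP, had 949, 975 and 976 with 4-OHT, against 416, 542 and 505 with vehicle (0.99, adjusted p = 1.45e-06). Both rose under either scaling.

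Among the eIF2α kinases, Eif2ak2 (PKR, which senses double-stranded RNA) rose by 0.72, while Eif2ak4 (GCN2, the sensor of uncharged tRNA) had 427, 355 and 366 with 4-OHT, against 647, 608 and 607 with vehicle (-0.70, adjusted p = 1.10e-05). Atf4 transcript had 5540.0, 5194 and 5126 with 4-OHT, against 4643, 4928 and 4699 with vehicle, and its small change took the sign of the scaling, at 0.15 (adjusted p = 0.0232) on the deposited values and -0.15 (adjusted p = 0.0454) on total-count scaling. On the deposited values it did not pass without vehicle replicate A (0.13) or C (0.14) or with limma without trend (0.15). ATF4 is controlled largely by translation, which these data do not measure.

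Genes of amino acid synthesis and of amino acid transport came in a pair of lists. Of 13 tested genes of amino acid synthesis 10 fell, 0 rose and 3 did not pass, with a median of -0.42. Gpt2, an alanine aminotransferase, fell by 0.88 on the log2 scale, Shmt2 and Mthfd2, of mitochondrial serine and folate metabolism, by 0.73 and 0.58, and Aldh18a1, of proline synthesis, by 0.52. Of 9 tested amino acid transporters 4 rose, 4 fell and 1 did not pass, and without vehicle replicate B 2 fell. Slc38a2, a carrier of alanine, serine and other small neutral amino acids, had 25998, 31126 and 27169 normalised counts with 4-OHT, against 8416, 8770.2 and 8545 with vehicle (1.71, adjusted p = 5.46e-09). Slc7a11, the cystine carrier, changed by 1.54, Slc38a1, another carrier of small neutral amino acids, by 1.11, and Slc1a5, a glutamine carrier, by -0.65.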

How the data were processed

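Messenger RNA of 6 samples was sequenced from single ends, per the labels' protocols. According to the submitters' processing notes, the tools were bcl2fastq 2.20, Trimmomatic 0.35, STAR 2.5.1b, RSEM and DESeq2 1.18.1, and the builds GRCm38 and mm10. Annotation, strand use, filters and the handling of multiply mapped reads are not given in the sources used here, and 92.6% of the table's identifiers have the coordinates of GENCODE M21. The deposited signal is the authors' gene count over the library's size factor: within 1e-06, all positive values of a column (100%) are whole multiples of 1 step, and dividing by it gave whole reads. The step of vehicle replicate B is close to 1, and a unit check left its recovery unaccepted, so edgeR was also run without that library. Other deposited columns, named per the file headers, are the authors' log2 fold change, p-value and adjusted p and a test statistic (score), which was not used. Depth was 11629150 to 15943722 reads per library, and the SD and standard errors given with each value carry the precision this allows.

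Genes that passed filterByExpr of edgeR 4.0.16 (minimum count 10) on recovered reads, 11828 in all, were fitted with limma 3.58.1 in R 4.3.3 (mean-variance trend, group as the only term, pseudocount 1, two-sided, Benjamini-Hochberg threshold 0.05). A log2 change on this scale understates changes of low genes. Ratios of pairs were compared with an exact permutation test in SciPy 1.17.1. The alternatives were pseudocounts of 0.5 and 5, no filter, a mean of at least 50, total-count and TMM scaling, edgeR's quasi-likelihood test and DESeq2 1.42.0 on recovered reads, limma without trend, the replicate letter as a block, and leaving out each sample. Chi-square per degree of freedom between replicates was 3.07 to 12.2, and 0 pairs were copies.

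The members and lists were chosen with earlier results of these data known. By rule, every sample's value is given for the called synthetases with the 5 highest and 5 lowest changes and for the 3 pairs whose ratio differed most, and other synthetases were added after their values were seen. From each list up to 4 genes with the smallest p are named, and Atf4, Ddit3, Eif2ak4 and Myc in any case. Exon overlaps and the lengths of principal transcripts come from GENCODE M21, and promoter windows from RefSeq. A few named items are not reported here.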

Additional observations from a re-analysis of the deposited data

How the results depend on the processing

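All 36 synthetases kept their call with pseudocounts of 0.5 and 5, without a filter, with a mean of at least 50, with TMM scaling, with limma without trend and with edgeR's quasi-likelihood test. Total-count scaling gave 1 synthetase higher in all, 1 cytosolic higher and 17 cytosolic lower, and turned Nars (-0.21), Hars (-0.23) and Farsa (-0.27) to lower. By its construction it shifts all genes down, since 4-OHT totals are larger. DESeq2 lost Mars2 and Wars2 (12 mitochondrial lower), and the cause was not tested. Without vehicle replicate B, 1 mitochondrial transcript, Lars2, was higher, by limma (0.44) and by edgeR (0.45). Leaving out each sample gave 3 to 4 higher and 23 to 26 lower in all, 3 higher and 10 to 12 lower among cytosolic, and 0 to 1 higher and 12 to 15 lower among mitochondrial transcripts. It also gave 1 higher gene in 2 settings each for mitochondrial translation and tRNA maturation. Same-lettered samples correlated in their deviations from group means at 0.109 (A), 0.0363 (B) and 0.120 (C), so the letters were not taken as pairs, though each sample correlated best with its own letter. With the replicate block 7972 of all genes passed, against 7750 without it, and 26 synthetases were lower, Gars (-0.13, adjusted p = 0.0494) being the addition. Depth limits Pars2, Ears2, Aars2, Sars2 and Cars2 most, with 119, 166, 268, 274 and 285 reads over the 4-OHT samples.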
